A study of Mus musculus with 12 samples.

Results

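The genes described here are the potassium channel genes of the mouse, taken as every row of the deposited gene tables whose name starts with Kcn. There were 94 such genes among the 37931 gene names that the anagen and the early telogen table share. The name was the sole criterion, so the group holds pore-forming subunits, their auxiliary subunits and 1 regulator of channel assembly.

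Potassium channels are membrane proteins that let potassium leave the cell along its gradient and so hold the membrane potential negative. Voltage-gated channels open when the membrane depolarizes, calcium-activated channels open when calcium rises inside the cell, inward rectifiers pass current best near the resting potential, and two-pore channels carry a background leak. Electrically silent subunits form no channel alone and change the gating of voltage-gated partners, and auxiliary subunits alter trafficking and gating. In cells that fire no action potentials, such as keratinocytes, the membrane potential that these channels set is known to bear on cell volume, calcium entry and the cell cycle.

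RNA was measured by sequencing of polyadenylated transcripts in hair follicle stem cells that had been sorted from skin as H2BGFP+, Sca-1-, CD34+ and CD49f+. The 4 groups were early telogen (the start of the resting phase) KO with 4 libraries, early telogen WT with 3, anagen (the growth phase) KO with 2 and anagen WT with 3. KO mice carried K14-H2BGFP, K14Cre and Foxc1 fl/fl. WT mice carried K14-H2BGFP and Foxc1 fl/fl without Cre, so all groups carried the fluorescent reporter and the floxed alleles. The K14 promoter is active in basal keratinocytes of the skin at large and is not specific to these stem cells. Early telogen mice were at postnatal day 47, and KO replicate 5 was titled day 43 with an age label of 47 days. Anagen mice were at day 29 and 31 in KO and at day 29, 30 and 31 in WT, and the WT library titled day 31 carried an age label of 43 days. Both sexes were present in every group except anagen KO, whose 2 libraries were female. Each stage had its own table, so stage and table cannot be told apart.

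Foxc1, the deleted forkhead transcription factor gene, had 1.13, 2.28, 3.11 and 0.910 CPM (counts scaled to the same total in each library) in the 4 early telogen KO libraries (replicates 5, 1, 2 and 3), against 43.8, 59.1 and 61.2 CPM in early telogen WT. It had 0.206 and 0.276 CPM in the anagen KO libraries, against 34.6, 116 and 47.1 CPM in anagen WT, so every library matched its genotype label. Library totals over gene rows were 2662083 counts in early telogen KO replicate 5, 6130867 to 11821916 in the other early telogen libraries and 29025553 to 54482469 in anagen. All 10 follicle stem cell markers examined were present in every group, with summed levels of 24837 to 36126 CPM in early telogen KO, 28905 to 35835 CPM in early telogen WT, 21842 to 25349 CPM in anagen KO and 23026 to 30695 CPM in anagen WT. These sums are carried by keratins, and single markers of the list differed. Cd34, whose protein was used in the sort, fell to 372 ± 30.6 CPM in early telogen KO, against 760 ± 102 CPM in early telogen WT (edgeR log2 fold change -1.20 ± 0.21, adjusted p = 0.0212). In anagen, 4 of the 10 markers were lower in both KO libraries than in any WT library, without passing the test. Of all genes tested in anagen, 29.7% did not overlap in either direction. Krt15, a bulge keratin, averaged 1723 ± 663 CPM in anagen KO and 7003 ± 2325 CPM in anagen WT (edgeR adjusted p = 0.156), and Nfatc1 79.6 ± 27.8 CPM and 194 ± 37.6 CPM (0.195). Cd34 averaged 254 ± 32.9 CPM in anagen KO and 552 ± 203 CPM in anagen WT (edgeR adjusted p = 0.314), and Lhx2 125 ± 2.17 CPM and 185 ± 35.1 CPM (0.392). The part of these differences in the results was not tested. A pair of early telogen libraries stood apart in markers of other cells. KO replicate 2 had 5099.6 CPM summed over 7 fibroblast markers and 4744 CPM over 5 markers of epidermal differentiation, against at most 1581 and 1151 CPM in the other KO libraries. WT replicate 3 was the lowest WT library in both lists, with 277 and 124 CPM. In bulk libraries of this kind, fewer cells of a type and less RNA per cell cannot be told apart.

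The sequences around the annotated start sites are shown for Kcnma1, Kcnk2 and Kcnf1, the members that were called in more than 1 of the comparisons below. They are RefSeq windows on build GRCm38.p6 from 250 bases before to 50 bases after the start, written 5′ to 3′ on the gene's own minus strand, with every CG dinucleotide in capitals. The Kcnma1 window lies at chr14:24004156-24004455, the most upstream of 4 Kcnk2 windows at chr1:189402224-189402523 and the Kcnf1 window at chr12:17176839-17177138.
Kcnma1: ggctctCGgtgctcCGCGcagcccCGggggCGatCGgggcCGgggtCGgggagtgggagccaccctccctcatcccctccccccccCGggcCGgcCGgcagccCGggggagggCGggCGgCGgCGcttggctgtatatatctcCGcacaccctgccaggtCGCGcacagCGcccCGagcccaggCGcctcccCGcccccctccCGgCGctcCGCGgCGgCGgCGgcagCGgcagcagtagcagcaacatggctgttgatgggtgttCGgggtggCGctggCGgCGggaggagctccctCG
Kcnk2: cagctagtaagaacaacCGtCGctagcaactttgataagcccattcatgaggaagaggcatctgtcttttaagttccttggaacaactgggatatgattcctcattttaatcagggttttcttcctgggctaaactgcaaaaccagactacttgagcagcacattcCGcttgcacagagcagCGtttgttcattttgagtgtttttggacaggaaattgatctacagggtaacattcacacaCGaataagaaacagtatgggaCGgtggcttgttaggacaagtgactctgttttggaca
Kcnf1: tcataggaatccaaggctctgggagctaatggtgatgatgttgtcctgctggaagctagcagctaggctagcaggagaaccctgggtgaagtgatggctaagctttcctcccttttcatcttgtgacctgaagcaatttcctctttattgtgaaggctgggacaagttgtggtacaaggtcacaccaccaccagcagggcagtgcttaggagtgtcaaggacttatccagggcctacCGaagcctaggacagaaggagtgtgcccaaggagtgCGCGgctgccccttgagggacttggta
The Kcnma1 window held 36 CG dinucleotides and was 78.0% G or C. The Kcnk2 window shown held 6 CG at 43.0% G or C, and the other 3 Kcnk2 windows held 3, 33 and 33 CG. The Kcnf1 window held 3 CG at 53.0% G or C. The median over all 32851 RefSeq windows was 7 CG and 52.7% G or C, so the Kcnma1 start is CG-rich and the Kcnf1 start is not. RefSeq windows were found for 69 of the 94 members, 94 windows in all. The forkhead motifs GTAAACA and GTAAATA, which cannot overlap each other and are shared by many forkhead factors, were searched on both strands. They were found in 0 of these 94 windows and in 6.54% of all windows. This says only that these letters are not in these windows.

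Most potassium channel genes had few or no reads in these stem cells. A mean of 1 CPM or more in at least 1 of the 4 groups was reached by 27 of 94 members (28.7%), against 33.3% of all gene names in both tables. By group, 23 members reached it in early telogen KO, 19 in early telogen WT, 22 in anagen KO and 20 in anagen WT, and 15 reached it in all 4 groups. The members nearest the threshold were Kcna6, Kcnk1 and Kcna7 above it, with highest group means of 1.09, 1.10 and 1.31 CPM, and Kcnj16, Kcne4 and Kcns3 below it, with 0.955, 0.946 and 0.893 CPM. Of the 67 members under 1 CPM in every group, 9 had 0 counts in all 12 libraries. These were Kcna10, Kcne2, Kcnj3, Kcnj6, Kcnj11, Kcnk18, Kcnmb3, Kcns2 and Kcnv2.

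The classes differed in how many members were detected. Of 14 two-pore genes, 6 reached 1 CPM (Kcnk1, Kcnk2, Kcnk5, Kcnk6, Kcnk7 and Kcnk10). Of 8 genes of the calcium-activated and SLO class, 5 did (Kcnma1, Kcnn1, Kcnn3, Kcnn4 and Kcnu1). Of 30 voltage-gated pore genes 9 did, of 15 inward rectifiers 2 did (Kcnj2 and Kcnj15) and of 10 electrically silent genes 1 did (Kcnf1). Of 16 auxiliary genes 3 did (Kcnab2, Kcnab3 and Kcnip3), and the assembly regulator Kcnrg also did. Summed over all 94 members, levels were 165 to 219.7 CPM in early telogen KO, 258 to 280.1 CPM in early telogen WT, 217 and 287 CPM in anagen KO and 214 to 343 CPM in anagen WT. The early telogen KO libraries all lay below the early telogen WT libraries in this sum, with means of 192 and 266 CPM. Kcnk2 alone averaged 33.8 and 112 CPM in these groups, a gap at least as wide as that of the sum. The lower sum is thus not a fall across the family. Kcnk2, Kcnh1 and Kcnj15 together held 47.8% to 63.2% of the sum in early telogen KO, 66.8% to 70.4% in early telogen WT, 57.3% to 72.6% in anagen KO and 69.0% to 77.4% in anagen WT.

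**Figure D1:**
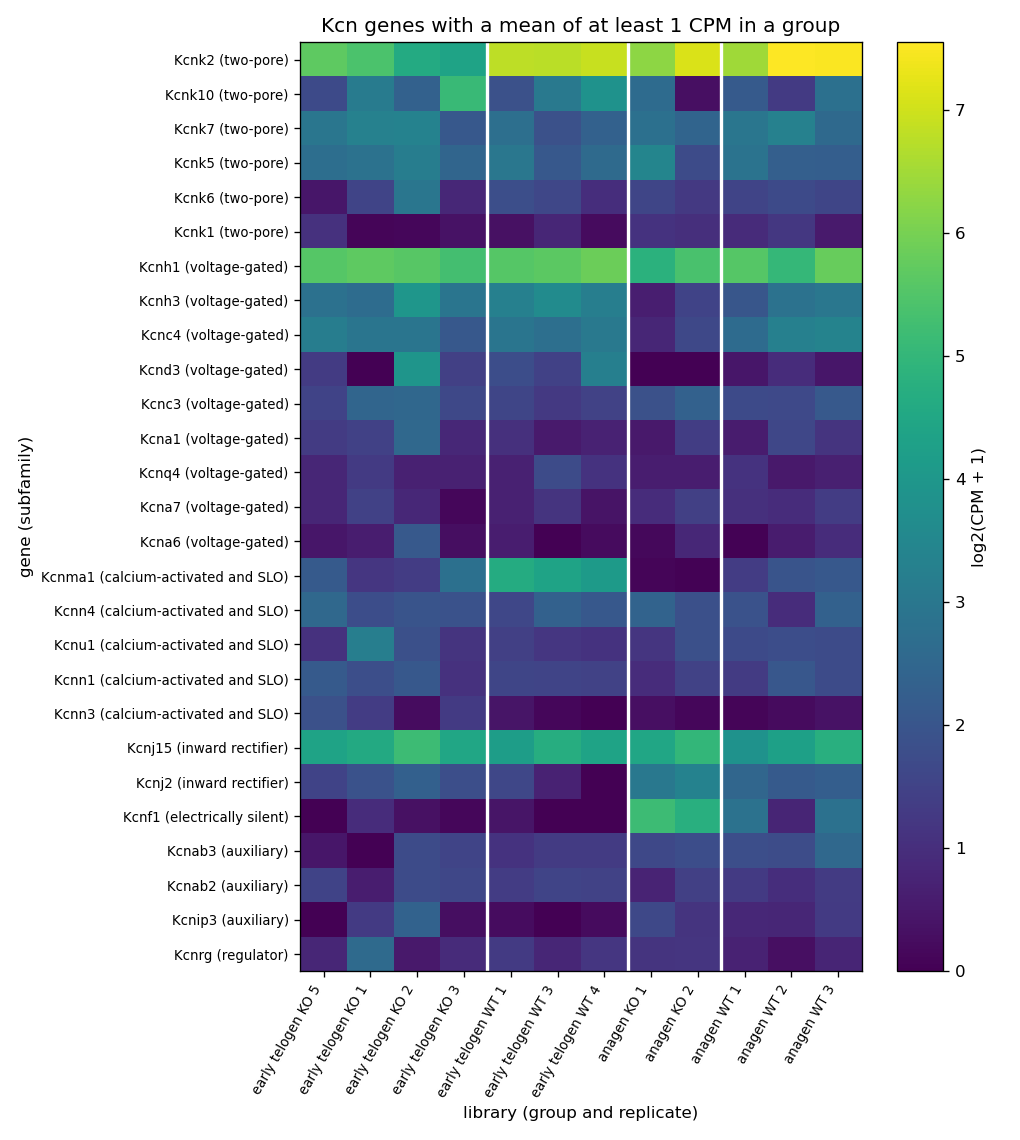
Levels of the 27 potassium channel genes that reached a mean of 1 CPM in at least 1 group, in each of the 12 libraries, on a log2(CPM + 1) colour scale. Brighter cells are higher levels. Kcnk2, Kcnh1 and Kcnj15 are bright in every library, while Kcnf1 is bright in the 2 anagen KO libraries, at 35.4 and 26.3 CPM, and dark in early telogen.

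Divided by exon length, which allows genes to be compared, Kcnk2 was the most abundant member in all 4 groups. Kcnk2 encodes TREK1, a background channel gated by membrane stretch, lipids and temperature. It had 6.83 ± 2.94 CPM per kb in early telogen KO (SD, n = 4), 22.7 ± 1.19 in early telogen WT (n = 3), 21.6 ± 8.75 in anagen KO (n = 2) and 30.8 ± 11.1 in anagen WT (n = 3). Kcnh1, a voltage-gated channel of the ether-a-go-go family, followed with 6.17 ± 0.650, 6.91 ± 0.686, 4.61 ± 1.26 and 6.01 ± 1.62 CPM per kb in the same groups. In early telogen KO the levels of Kcnk2 and Kcnh1 overlapped within their SD, and in the other groups Kcnk2 stood clear of Kcnh1. The electrically silent Kcnf1 was second in anagen KO, with 6.45 ± 1.34 CPM per kb. The two-pore gene Kcnk7 and the inward rectifier Kcnj15 took places 3 and 4 in early telogen KO, early telogen WT and anagen WT, in varying order, and were 4.47 ± 1.75 and 3.91 ± 1.11 CPM per kb in early telogen KO.

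The design asks first how loss of Foxc1 altered expression at each stage. In early telogen, Kcnk2 and Kcnma1 fell in KO stem cells, and no tested potassium channel gene was called higher. Kcnma1 encodes the pore of the large-conductance BK channel, opened by voltage and by calcium. Of the 23 members that passed the filter on low counts, these 2 were called (8.70%), against 0.956% of the 12030 genes tested. Both were also the only tested members whose KO and WT libraries did not overlap (8.70%), against 13.1% of all genes tested. An unadjusted p under 0.05 was found for 3 of the 23 members (13.04%), against 12.04% of all genes tested, so this share was near the background. Of these 3, only Kcnn3 was higher in KO. DESeq2 called the same 2 genes as edgeR. The median log2 fold change was 0.11 over the 23 members and 0.03 over all genes tested.

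Kcnk2 (chromosome 1, 189207930 to 189402273) was measured at 49.96, 42.0, 23.4 and 19.8 CPM in early telogen KO replicates 5, 1, 2 and 3, against 109.6, 107.8 and 118.7 CPM in early telogen WT replicates 1, 3 and 4. The KO libraries spread over a wider range than the WT libraries, and the highest KO library lay well under the lowest WT library. The edgeR log2 fold change was -1.91 ± 0.31 (SE, adjusted p = 0.0212). The call was lost without WT replicate 3 (edgeR adjusted p = 0.0802) or WT replicate 4 (adjusted p = 0.0702), at log2 fold changes of -1.90 and -1.88, and over all alternatives the adjusted p ran from 3.40e-07 to 0.107. An antisense gene, A430027H14Rik, overlaps 12.2% of Kcnk2 exon length, and the strand setting used in counting is not given in the sources used here.

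Kcnma1 (chromosome 14, 23289431 to 24014491) was measured at 3.38, 1.27, 1.51 and 5.86 CPM in early telogen KO replicates 5, 1, 2 and 3, against 24.1, 19.7 and 16.5 CPM in early telogen WT replicates 1, 3 and 4. Every KO library was below every WT library, and KO replicate 5 rested on 9 counts. The edgeR log2 fold change was -2.90 ± 0.51 (adjusted p = 0.0304). Leaving out any of 5 libraries ended the call. The edgeR adjusted p was then 0.110 (KO replicate 5 left out), 0.0554 (KO replicate 1), 0.0750 (WT replicate 1), 0.107 (WT replicate 3) or 0.0723 (WT replicate 4). The log2 fold change stayed between -3.72 and -2.60 when any 1 library was left out, and over all alternatives the adjusted p ran from 2.20e-06 to 0.248. An antisense gene, 4930519K11Rik, overlaps 5.98% of Kcnma1 exon length.

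Fibroblast and epidermal differentiation markers were high in KO replicate 2 and low in WT replicate 3, as given above. Without both libraries, Kcnk2 kept its call and Kcnma1 lost its own (log2 fold change -2.57, edgeR adjusted p = 0.0803). Schwann and neural markers, 6 genes carried mainly by Mbp, summed to 80.8 to 101 CPM in early telogen KO and 54.2 to 64.9 CPM in early telogen WT, without overlap. Of 6 melanocyte markers, the pigment gene Dct rose to 10.98 ± 4.70 CPM in early telogen KO, against 1.89 ± 0.525 CPM in early telogen WT (edgeR adjusted p = 0.0274), while the summed list overlapped, at 71.3 to 105 CPM and 81.1 to 136 CPM. Mitf carried most of that sum and went the other way. Its KO mean of 64.7 ± 7.46 CPM lay under a WT mean of 109 ± 28.6 CPM, without overlap (edgeR log2 fold change -0.94 ± 0.21, adjusted p = 0.0621). Tyr and Tyrp1 were higher in every KO library than in any WT library but did not pass (edgeR adjusted p = 0.108 and 0.124). Mlana and Sox10 overlapped. The part of these markers in the results was not tested. Of the known BK partners in early telogen, Kcnmb3 and Kcnmb1 had 0 counts and Kcnmb2 reached at most 0.0888 CPM. Kcnmb4, the beta subunit known from neurons, ranged from 0.169 to 1.87 CPM in KO and from 0 to 0.326 CPM in WT.

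**Figure D2:**
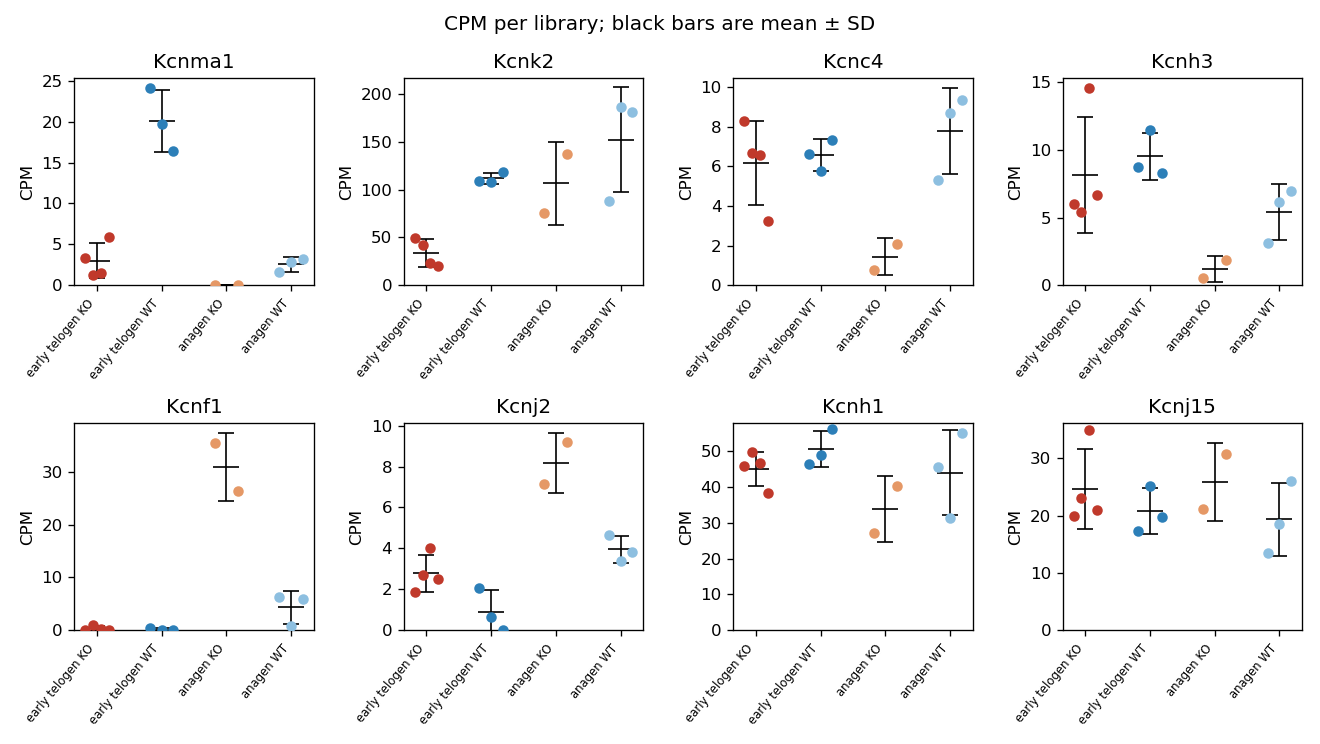
CPM of Kcnma1, Kcnk2, Kcnc4, Kcnh3, Kcnf1, Kcnj2, Kcnh1 and Kcnj15 in each library (points) of early telogen KO, early telogen WT, anagen KO and anagen WT, with the group mean ± SD as black bars. Kcnma1 is highest in early telogen WT, at 16.5 to 24.1 CPM, and Kcnf1 is highest in anagen KO, at 26.3 and 35.4 CPM.

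The other abundant members did not pass in early telogen. Kcnh1 averaged 45.2 ± 4.77 CPM over the 4 KO libraries and 50.6 ± 5.03 CPM over the 3 WT libraries (edgeR log2 fold change -0.34 ± 0.17, adjusted p = 0.472). Kcnj15, an inward rectifier, averaged 24.7 ± 6.98 CPM in the KO and 20.8 ± 4.01 CPM in the WT libraries (edgeR log2 fold change 0.05 ± 0.23, adjusted p = 0.956). Kcnk10, which encodes the stretch-sensitive two-pore channel TREK2, a close relative of Kcnk2, ranged from 2.25 to 33.7 CPM in KO and from 2.68 to 13.4 CPM in WT, and its groups overlapped (edgeR adjusted p = 0.895). Kcnn3, a small-conductance calcium-activated channel, had 2.63, 1.52, 0.178 and 1.41 CPM in KO replicates 5, 1, 2 and 3, against 0.357, 0.0927 and 0 CPM in WT. KO replicate 2 lay within the WT range, and the log2 fold change of 2.79 ± 1.16 had an edgeR adjusted p of 0.350. The 5 WT counts of Kcnn3 limit its precision.

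The same comparison in anagen gave lower levels in KO for Kcnma1, Kcnc4, Kcnd3 and Kcnh3 and a higher level for Kcnf1, none of which passed in the 5-library edgeR fit. Of 40 members tested, 0 were called, and of the 14409 genes tested 0% were called. At an unadjusted p under 0.05 there were 9 members of 40 (22.5%) and 1456 genes of all tested (10.1%). The smallest adjusted p over all genes, Foxc1 included, was 0.0522. The KO and WT libraries did not overlap for 12 of 40 members (30.0%), 3 higher and 9 lower in KO, against 29.7% of all genes tested, so this share was near the background. The 3 were Kcnf1, Kcnj2 and Kcnrg, and the 9 were Kcnc4, Kcnd3, Kcnh3, Kcnh4, Kcnip2, Kcnj8, Kcnj16, Kcnma1 and Kcnmb4. The median log2 fold change was -0.39 over the 40 members and 0.02 over all genes tested.

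Kcnma1 had 0.0772 and 0.0345 CPM in the anagen KO libraries, 4 counts in all, against 1.56, 2.87 and 3.23 CPM in the anagen WT libraries. Both KO libraries were far below every WT library, in the same direction as in early telogen. The edgeR log2 fold change was -5.47 ± 0.72 (adjusted p = 0.0586). Kcnma1 passed without WT replicate 1 (edgeR adjusted p = 0.0267), and over all alternatives its adjusted p ran from 2.26e-07 to 0.320.

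Among the voltage-gated genes, Kcnc4, a fast-inactivating channel subunit (chromosome 3, 107438303 to 107459552), had 0.772 and 2.10 CPM in anagen KO, against 5.29, 8.70 and 9.36 CPM in anagen WT. The groups did not overlap (edgeR log2 fold change -2.54 ± 0.54, adjusted p = 0.188). Kcnh3, of the ether-a-go-go-like branch (chromosome 15, 99224861 to 99242817), had 0.540 and 1.86 CPM in anagen KO, against 3.08, 6.17 and 6.996 CPM in anagen WT. Again no KO library reached a WT library (edgeR log2 fold change -2.28 ± 0.65, adjusted p = 0.302). Kcnd3, which carries a transient A-type current (chromosome 3, 105452330 to 105674002), had 0 counts in both anagen KO libraries, against 0.385, 0.956 and 0.383 CPM in anagen WT. With a floor of 3 counts over the KO group, Kcnd3 was at least 12.3-fold lower in KO, and its edgeR adjusted p was 0.202. Without anagen WT replicate 2 this bound was 8.71-fold.

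Kcnf1 (chromosome 12, 17172100 to 17176888) went the other way, with 35.4 and 26.3 CPM in anagen KO, against 6.24, 0.709 and 5.97 CPM in anagen WT. Both KO libraries were above all WT libraries, and WT replicate 2 was the lowest of these. The edgeR log2 fold change was 2.75 ± 0.76 (adjusted p = 0.302). Kcnj2, a classical inward rectifier (chromosome 11, 111066164 to 111076821), had 7.15 and 9.20 CPM in anagen KO, against 4.66, 3.39 and 3.80 CPM in anagen WT, without overlap (log2 fold change 0.96 ± 0.31, edgeR adjusted p = 0.351). Its neighbour Kcnj16, another inward rectifier 38196 bp away on the same chromosome and chosen for mention after its values were seen, averaged 0.0514 CPM in anagen KO and 0.421 CPM in anagen WT. Kcnk2, called in early telogen, had 76.1 and 137 CPM in anagen KO, against 88.7, 186 and 182 CPM in anagen WT, and its groups overlapped (log2 fold change -0.61 ± 0.40, edgeR adjusted p = 0.675).

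Whether these anagen differences passed depended on the fit. DESeq2 called 5 members, with Kcnma1, Kcnc4, Kcnd3 and Kcnh3 lower and Kcnf1 higher in KO, and called 2.22% of all genes. A single edgeR fit of all 12 libraries called Kcnma1 and Kcnc4 lower, with 1.17% of all genes called. An edgeR fit that took the titled day for a replicate block called Kcnma1 (adjusted p = 0.0198), Kcnc4 (0.0178) and Kcnh3 (0.0332) lower and Kcnf1 (0.00752) higher, with 1.76% of all genes called. That fit had 1 residual degree of freedom, and the 2 libraries titled day 31 carry different age labels. An edgeR fit with sex as covariate called 0 members, as did edgeR with DESeq2 size factors. With sex, the edgeR adjusted p was 0.263 for Kcnma1, 0.931 for Kcnd3 and 0.9997 for both Kcnc4 and Kcnf1. Both anagen KO libraries were female. Reads placed at more than 1 position, which were not counted, made up 32.8% and 31.1% of the anagen KO tallies and 20.1% to 25.8% of the anagen WT tallies. The 6 melanocyte markers summed to 25.5 and 30.3 CPM in anagen KO, against 59.3 to 139 CPM in anagen WT, with Mitf at 3.01 ± 1.10 CPM and 28.2 ± 16.3 CPM. Schwann and neural markers summed to 18.2 and 19.0 CPM in anagen KO, against 26.4 to 45.9 CPM in anagen WT. Neither list overlapped between KO and WT, and 29.7% of single genes tested in anagen did not overlap either. The part of these values in the results was not tested.

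**Figure D3:**
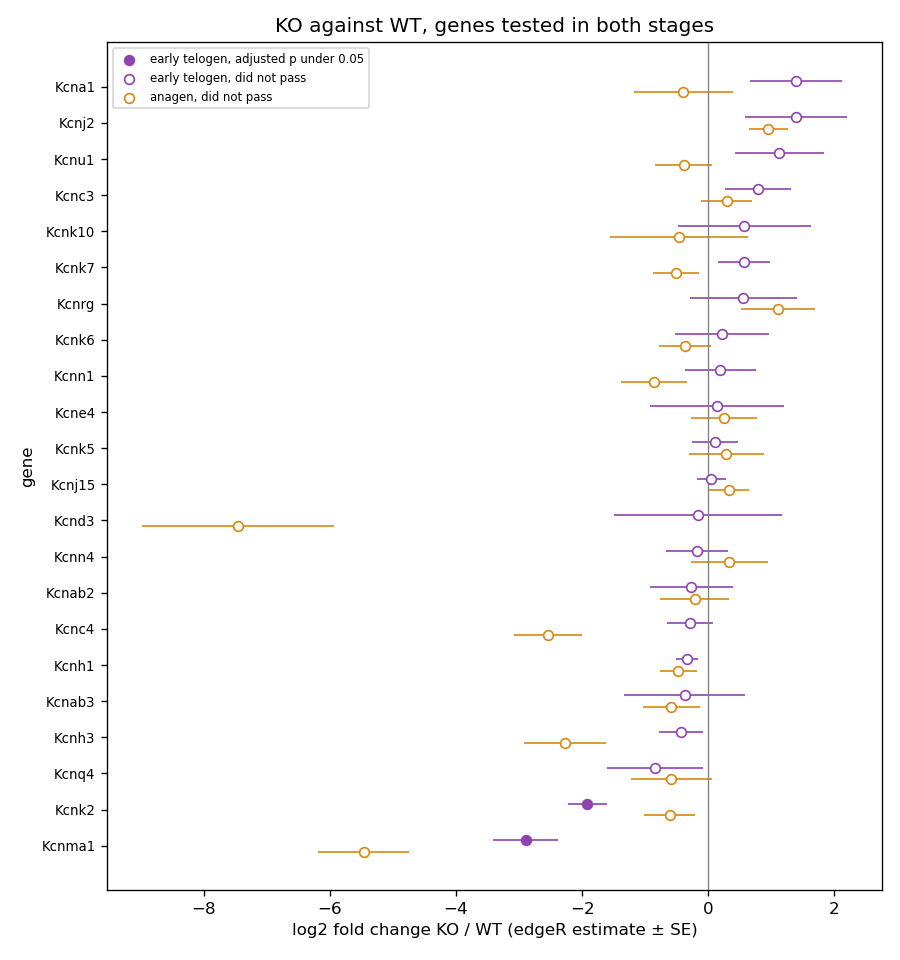
Log2 fold change, KO over WT, of the potassium channel genes tested in both stages, in early telogen and in anagen. Bars are the SE derived from the edgeR F statistic, and filled points have an adjusted p under 0.05. Kcnk2 at -1.91 and Kcnma1 at -2.90 in early telogen are the filled points. The anagen point of Kcnd3 depends on the prior count, since the gene had 0 counts in anagen KO.

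The KO effect was then compared between stages, as early telogen KO minus WT against anagen KO minus WT in 1 fit of all 12 libraries. Of 34 members tested 0 were called, against 0.144% of the 13193 genes tested. An unadjusted p under 0.05 was found for 5 members (14.7%), against 6.37% of all genes tested. Kcnc4 had the smallest p, with a difference in log2 fold change of 2.22 ± 0.63 (edgeR adjusted p = 0.316), and DESeq2 called it (adjusted p = 0.0346, with a range of 0.0346 to 0.719 over all alternatives), as it did 0.645% of all genes. Kcnk2 had a difference of -1.33 ± 0.54 (edgeR adjusted p = 0.647, with a range of 0.00608 to 0.951 over all alternatives), Kcnma1 of 2.49 ± 0.99 (adjusted p = 0.632) and Kcnh3 of 1.83 ± 0.71 (adjusted p = 0.610). With no filter on low counts edgeR called Kcnk2 (difference -1.32, adjusted p = 0.00608), Kcnc4 (2.23, 0.0476) and Kcnd3 (0.000903, with a difference that depends on the prior count), together with 1.83% of all genes. Kcnk2 was called for this difference only in that edgeR fit. DESeq2, which tested 84 members, did not call Kcnk2. The cause of this was not tested.

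Between stages in WT, Kcnma1 and Kcnd3 rose and Kcnf1, Kcne1 and Kcnip3 fell in early telogen relative to anagen. Of 33 members tested these 5 were called (15.2%), against 29.5% of the 12718 genes tested. The members' share was below that of all genes tested, and their median log2 fold change was -0.20 against -0.10. Kcnma1 was 20.1 ± 3.83 CPM in early telogen WT and 2.55 ± 0.877 CPM in anagen WT (SD, n = 3 each) (edgeR log2 fold change 3.07 ± 0.33, adjusted p = 0.000595). Kcnma1 was called without any 1 of the 6 libraries, with an adjusted p of at most 0.00368.

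The other WT calls rested on low counts. Kcnd3 had 2.41, 1.76 and 8.48 CPM in early telogen WT, against 0.385, 0.956 and 0.383 CPM in anagen WT (log2 fold change 2.92 ± 0.75, edgeR adjusted p = 0.0173). Early telogen WT replicate 4 was the highest, and without it the Kcnd3 log2 fold change was 1.92 (edgeR adjusted p = 0.108), while without anagen WT replicate 1 it was 2.69 (0.0506). Over all alternatives its adjusted p ran from 0.000182 to 0.118. Kcnf1 had 4 counts in early telogen WT replicate 1 (0.357 CPM) and 0 in replicates 3 and 4, against 6.24, 0.709 and 5.97 CPM in anagen WT (log2 fold change -4.84 ± 1.20, edgeR adjusted p = 0.0178). Every early telogen WT library was under every anagen WT library, and the Kcnf1 call was lost without early telogen WT replicate 3 (adjusted p = 0.0659) or 4 (0.0633), with 0.000127 as the lowest adjusted p over all alternatives. Kcnf1 did not pass the filter without anagen WT replicate 1 or 3. Without early telogen WT replicate 1, which held all 4 counts, Kcnf1 stayed called at a fitted log2 fold change of -9.84 that depends on the prior count.

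Both remaining WT calls were of auxiliary subunits. Kcne1, the minK subunit that slows Kcnq1 channels, had 0 counts in early telogen WT, against 0.661, 0.863 and 0.862 CPM in anagen WT, and was at least 7.22-fold lower against a floor of 3 counts over the early telogen group (edgeR adjusted p = 0.0158). Without anagen WT replicate 2 this bound was 6.88-fold. The Kcne1 partner Kcnq1 also had 0 counts in all 7 early telogen libraries and at most 0.345 CPM in anagen. Kcnip3, a calcium-binding partner of the A-type channels, had 0.179, 0 and 0.163 CPM in early telogen WT, against 0.808, 0.740 and 1.44 CPM in anagen WT (log2 fold change -3.06 ± 0.97, edgeR adjusted p = 0.0399). The Kcnip3 call was lost without early telogen WT replicate 1, 3 or 4 (adjusted p = 0.0658, 0.0884 and 0.0929) and its adjusted p over all alternatives ran from 0.0423 to 0.0962. Neither gene passed the filter when an anagen WT library was left out. Kcnk2 did not pass, at 112 ± 5.86 CPM in early telogen WT and 152 ± 55.1 CPM in anagen WT (log2 fold change -0.35 ± 0.26, edgeR adjusted p = 0.349), and was called lower without anagen WT replicate 1 (log2 fold change -0.62, adjusted p = 0.0247). Kcnj2 had 2.05, 0.649 and 0 CPM in early telogen WT, against 4.66, 3.39 and 3.80 CPM in anagen WT (edgeR adjusted p = 0.0889). Kcnj2 was called lower by DESeq2 (0.0237) and by edgeR with no filter (0.0164) or in 1 fit of all 12 libraries (0.0400). Without early telogen WT replicate 1, edgeR called Kcnj2 (0.0294) and Kcns3 (0.0473) lower. Kcnh3 averaged 9.52 ± 1.72 CPM in early telogen WT and 5.42 ± 2.06 CPM in anagen WT (edgeR adjusted p = 0.0833). DESeq2 called Kcnh3 higher in early telogen WT (log2 fold change 0.96, adjusted p = 0.0482).

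Between stages in KO, Kcnma1, Kcnh3 and Kcnc4 rose and Kcnf1, Kcnk2 and Kcnj2 fell in early telogen relative to anagen. Of 27 members tested these 6 were called (22.2%), and of the 12771 genes tested 22.2% were called, so the members' share equalled the background. The median log2 fold change was 0.40 over the members and -0.03 over all genes tested. Kcnf1 had 0, 0.930, 0.267 and 0.101 CPM in early telogen KO replicates 5, 1, 2 and 3, against 35.4 and 26.3 CPM in anagen KO (log2 fold change -6.27 ± 0.58, edgeR adjusted p = 7.35e-05). The groups were far apart, and Kcnf1 was called without any 1 of the 6 libraries. Kcnma1 was 3.01 ± 2.13 CPM in early telogen KO and 0.0558 ± 0.0302 CPM in anagen KO (n = 4 and n = 2) (edgeR log2 fold change 5.59 ± 1.12, adjusted p = 0.00610), and was also called without any 1 library.

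The remaining KO calls were less stable to leaving out a library. Kcnk2 was 33.8 ± 14.5 CPM in early telogen KO and 107 ± 43.3 CPM in anagen KO, without overlap (log2 fold change -1.68 ± 0.38, edgeR adjusted p = 0.0129), and lost its call without anagen KO replicate 2 (adjusted p = 0.116, with 1.59e-09 the lowest over all alternatives). Kcnh3 had 6.01, 5.41, 14.6 and 6.67 CPM in early telogen KO replicates 5, 1, 2 and 3, against 0.540 and 1.86 CPM in anagen KO (log2 fold change 2.75 ± 0.64, edgeR adjusted p = 0.0127). KO replicate 2 was the highest, and the Kcnh3 call held without it (adjusted p = 0.0173) and was lost without anagen KO replicate 1 (0.0726, with 2.96e-05 the lowest over all alternatives). Kcnc4 was 6.19 ± 2.12 CPM in early telogen KO and 1.44 ± 0.940 CPM in anagen KO (log2 fold change 2.07 ± 0.60, edgeR adjusted p = 0.0322), and lost its call without anagen KO replicate 1 (adjusted p = 0.204), early telogen KO replicate 5 (0.0801) or early telogen KO replicate 1 (0.0564), with 0.00210 the lowest over all alternatives. Kcnj2 was 2.78 ± 0.888 CPM in early telogen KO and 8.17 ± 1.45 CPM in anagen KO (log2 fold change -1.54 ± 0.42, edgeR adjusted p = 0.0247), and lost its call without anagen KO replicate 1 (0.0766) or 2 (0.202) or early telogen KO replicate 5 (0.0545) or 3 (0.0514), with 0.0127 the lowest over all alternatives. Kcnd3 had 1.503, 0, 14.2 and 1.72 CPM in early telogen KO replicates 5, 1, 2 and 3 and 0 counts in anagen KO, at least 115-fold higher over the pooled early telogen KO libraries, with an edgeR adjusted p of 0.0518. Early telogen KO replicate 2 held 160 of its 181 counts, and without that library the bound was at least 19.5-fold. Kcnd3 passed without early telogen KO replicate 1 (adjusted p = 0.00899) or replicate 2 (0.0329). Kcnn3, at 1.44 ± 1.003 CPM in early telogen KO and 0.167 ± 0.0906 CPM in anagen KO (adjusted p = 0.0889), also passed without early telogen KO replicate 2 (0.0201).

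**Figure D4:**
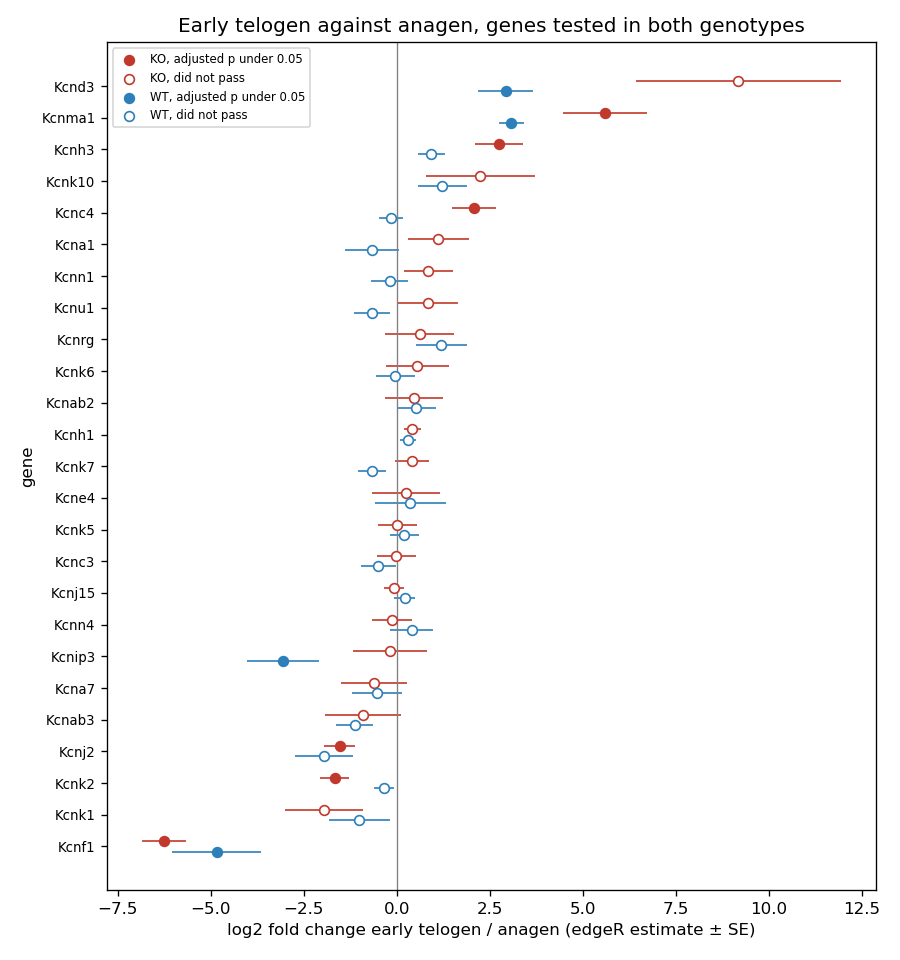
Log2 fold change, early telogen over anagen, of the potassium channel genes tested in both genotypes, in KO and in WT. Bars are the SE derived from the edgeR F statistic, and filled points have an adjusted p under 0.05. Kcnma1 is above 0 in both genotypes, at 5.59 in KO and 3.07 in WT, and Kcnf1 is below 0 in both, at -6.27 and -4.84. The KO point of Kcnd3 depends on the prior count, since the gene had 0 counts in anagen KO.

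The stage comparisons and the KO comparisons share libraries, so their values are set side by side and not correlated. Kcnma1 averaged 3.01 ± 2.13 CPM in early telogen KO and 20.1 ± 3.83 CPM in early telogen WT, and 0.0558 ± 0.0302 CPM in anagen KO and 2.55 ± 0.877 CPM in anagen WT. Kcnf1 was near 0 in both early telogen groups, with 0.325 ± 0.419 CPM in early telogen KO and 0.119 ± 0.206 CPM in early telogen WT, and averaged 30.9 ± 6.43 CPM in anagen KO and 4.31 ± 3.12 CPM in anagen WT. Kcnh1 did not pass in any of the 5 comparisons, and its group means lay between 33.8 and 50.6 CPM. Kcnj15 did not pass in any either, with group means between 19.4 and 25.9 CPM.

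Other genes of potassium handling were taken from a list of 50, which holds the sodium-potassium pump, the cation-chloride cotransporters, their WNK kinases and channel partners outside the Kcn names. In early telogen 25 were tested, 0 were called higher and 1 was called lower in KO (4%, against 0.956% of all genes tested). This was Wnk4, a kinase that controls cation-chloride cotransporters, with means of 23.9 ± 4.49 CPM over the 4 KO libraries and 44.6 ± 8.28 CPM over the 3 WT libraries (edgeR log2 fold change -1.09 ± 0.20, adjusted p = 0.0299). The list's median log2 fold change was 0.19, against 0.03 over all genes tested. At an unadjusted p under 0.05 there were 2 higher and 1 lower, beside 12.04% of all genes tested, and DESeq2 called 1, lower. In anagen 33 were tested and edgeR called 0 between KO and WT, with a median of -0.01. At an unadjusted p under 0.05 there were 3 higher, beside 10.1% of all genes tested, and DESeq2 called 1, higher. For the difference between stages 29 were tested and edgeR called 0. With an unadjusted p under 0.05, 1 was higher and 3 were lower, beside 6.37% of all genes tested, and DESeq2 called 1, lower.

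Between stages in WT, 27 of the list were tested, 1 was called higher and 5 were called lower in early telogen. This share of 22.2% lay below the 29.5% of all genes tested. Wnk1, another kinase of this family, rose to 391.8 ± 37.1 CPM in early telogen WT, against 145 ± 15.8 CPM in anagen WT (edgeR adjusted p = 0.000892). Stk39, the kinase downstream of the WNKs, fell to 3.41 ± 1.95 CPM against 39.8 ± 9.498 CPM (adjusted p = 0.00139). The pump regulator Fxyd3 fell to 293 ± 23.0 CPM against 881 ± 289 CPM (0.00289), and the pump subunit Atp1b3 fell to 206 ± 22.2 CPM against 474 ± 119 CPM (0.00454). In KO, 28 were tested, 3 were called higher and 6 were called lower in early telogen (32.1%, against 22.2% of all genes tested). Of the 6, Stk39, Atp1b3 and the proton-potassium pump subunit Atp12a fell by 3.41, 1.95 and 4.97 on the log2 scale in early telogen KO relative to anagen KO (edgeR adjusted p = 0.000103, 0.000261 and 0.000545). The leucine-rich repeat partners of the BK channel, Lrrc26 and Lrrc38, had 0 counts in all 4 groups, and Lrrc52 and Lrrc55 had 0 counts in every group except anagen WT.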

How the data were processed

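The authors deposited unnormalized counts for each gene, with a separate table for each stage, over 12 libraries. Per the submitters' processing notes, the authors used TopHat2, HTSeq and build mm10; versions, settings and the strand option of the counting are not given in the sources used here. The library kit was directional, per the labels' protocols. The anagen table held 38803 gene rows and 5 tally lines, which stayed out of totals. The early telogen table held 37958 gene rows, and 3 broken lines were left out; 27 of its names had turned into dates and could not be matched between tables.

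Members were the rows named Kcn in both tables. The members, the potassium handling list and the marker lists were chosen with earlier results of these data known. Levels are CPM, counts scaled to a library's total over gene rows, as mean ± SD; exon lengths and coordinates are from GENCODE M21 (GRCm38) and promoters from RefSeq. Tests ran on all genes with edgeR 4.0.16 in R 4.3.3 (TMM, filterByExpr with a minimum count of 10 and total of 15, robust quasi-likelihood F-test, Benjamini-Hochberg adjustment over all genes tested, adjusted p under 0.05). Fold changes are log2 ± SE. The edgeR SE was derived as the absolute log2 fold change divided by the square root of the F statistic. Each KO comparison was fitted within its table, each stage comparison on its genotype's libraries, and the difference of KO effects on all 12 libraries. The procedure was tested on simulated counts with known changes. Alternatives were DESeq2 1.42.0, DESeq2 size factors in edgeR, no filter, 1 fit of all libraries, sex as covariate, a replicate block and leaving out each library.

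Genes named were those called in any comparison, the 4 of smallest p in each, and those with a group mean of 10 CPM or more. Genes called beyond this under other settings, and those under or at the threshold of 1 CPM, are named after their values were seen. The labels do not say that replicates came from separate animals, so p-values measure only the spread between these libraries, which may be technical. Floors of 3 counts cover counting error only. A gene of the potassium handling list is not reported here.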

Additional observations from a re-analysis of the deposited data

Results flagged for a closer look

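Among the 27 potassium channel genes that reached 1 CPM, 4 had 1 library far from the other 3 in early telogen KO, the only group with enough libraries for this check. Chance would flag about 1 in 20 of such groups. The 1 CPM threshold used the same libraries, so the 4 cannot be set against that rate. The gap of the outlying library, divided by the range of the group, exceeded Dixon's 95% critical value in each.

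KO replicate 2 was the outlying library for 3 voltage-gated genes. Kcnh3 had 14.6 CPM there, against 5.41 to 6.67 CPM in the other KO libraries. Kcnd3 had 14.2 CPM, against 0 to 1.72 CPM. Kcna6 had 3.29 CPM, against 0.202 to 0.508 CPM, and an antisense gene overlaps 39.6% of Kcna6 exon length. Kcna6 reached a mean of 1 CPM only in early telogen KO, through this same library. KO replicate 2 is also the library in which fibroblast markers summed to 5099.6 CPM and epidermal differentiation markers to 4744 CPM, and the part of those cells in these values was not tested. The regulator Kcnrg had 5.08 CPM in KO replicate 1, against 0.444 to 0.910 CPM in the other KO libraries.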

How the results depend on the processing

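Over 23 results for single named genes and 274 values under the alternatives, 228 kept their direction and side of the threshold, 30 lost the threshold, 16 gained it and 0 changed sign. Alternatives in which a gene did not pass the filter are not among the 274. The 228 include results that did not pass in the main fit and stayed so. Without 1 library, Kcnma1 in early telogen KO against WT lost its call in 5 of 7 fits. Kcnip3 between stages in WT lost its call in 3 of 3 such fits. Members called in early telogen KO against WT numbered 2, and 0 with the replicate block and 1 without KO replicate 2 and WT replicate 3 together; leaving out each library in turn gave 0 to 2. With the replicate block Kcnk2 had an edgeR adjusted p of 0.107 and Kcnma1 of 0.248, and this block left 1 residual degree of freedom. Deviations of the 2 pairs that share a number correlated at 0.106 and 0.0532, within the -0.141 to 0.124 of pairs that share none. The labels do not say that a number marks a litter or batch. Members called in anagen KO against WT numbered 0, against 5 with DESeq2, 4 without a filter on low counts, 2 in 1 fit of all 12 libraries and 4 with the replicate block by day, and 0 to 1 without 1 library. The count was also 0 with sex as covariate and with DESeq2 size factors in edgeR. The block by day called Kcnma1, Kcnc4 and Kcnh3 lower and Kcnf1 higher (edgeR adjusted p of 0.0198, 0.0178, 0.0332 and 0.00752). It left 1 residual degree of freedom, and the day 31 pair carries different age labels. The pairs' deviations correlated at 0.414 and 0.359. Deviations of 2 KO libraries from their own mean are mirror images, so these are not 2 separate measures of pairing. Leaving out an anagen KO library leaves 1, which is then assumed to vary like the WT group. Between stages, members called numbered 5 in WT (2 to 6 without 1 library) and 6 in KO (3 to 8 without 1 library, 11 without a filter). For the difference of KO effects the count was 0, against 1 with DESeq2 and 3 without a filter, and 0 without any 1 library. The cause of these moves was not tested. In early telogen KO against WT, 115 of all genes were called, against 393 with DESeq2, 338 without a filter, 39 in 1 fit of all libraries, 11 with the replicate block and 19 to 131 without 1 library. In anagen KO against WT, 0 of all genes were called, against 493 with DESeq2, 306 without a filter, 154 in 1 fit of all libraries, 253 with the block, 1 with sex as covariate and 0 to 95 without 1 library. For the difference of KO effects 19 were called, against 144, 409 and 6 with DESeq2, without a filter and with sex, and 0 to 55 without 1 library. Leaving out 1 library gave 2312 to 3329 calls between stages in WT (3748 with all) and 1382 to 3640 in KO (2835 with all). Members reaching 1 CPM numbered 27, against 26 with TMM-scaled totals, 22 where every library of a group had to reach it and 27 to 29 without 1 library. Depth limits the genes near 0, above all in early telogen KO replicate 5 with 2662083 counts.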
